A study of Mus musculus with 9 samples.

Results

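Glucose and lactate enter and leave cells through membrane carriers, and 7 genes of this machinery were followed in sorted mouse germ cells. They were taken by name from the 24503 gene names of the count table: the glucose transporters Slc2a1 (GLUT1), Slc2a3 (GLUT3) and Slc2a8 (GLUT8), the monocarboxylate transporters Slc16a1 (MCT1), Slc16a3 (MCT4) and Slc16a7 (MCT2), and basigin (Bsg). All 7 were present and all passed the filter on low counts in every comparison. The choice used no measured value of theirs, although results of the same data were already known when they were picked.

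The study asked whether retinoic acid (RA) is needed when male germ cells begin meiosis. All mice carried Uchl1-eGfp, in which the Uchl1 promoter drives EGFP, and all received the RA synthesis inhibitor WIN18,446 (100 µg/g of body weight) starting on P1. The last day of that first course is given as P10 in one description and as P11 in another. All then received 10 µl of RA at 10 µg/µl on P11. The first group, In/B spermatogonia (intermediate and type B), was collected at P17 after WIN18,446 had been stopped. The second, RA-sufficient preleptotene (PL) spermatocytes, was collected at P19, also after the inhibitor had been stopped, and the third, RA-deficient PL spermatocytes, at P19 with WIN18,446 continued. Each group held 3 libraries, made from cells sorted as EGFP-bright (In/B) or EGFP-dim (PL). The inhibitor was given to the whole animal and so reached somatic cells as well as germ cells. Per the labels, testes of several pups of a litter were pooled for each experiment. The methods describe separate cell preparations but do not tie libraries to animals, so p-values measure the spread between these libraries.

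Facilitative glucose transporters of the SLC2 family move sugars down their gradient. The SLC16 carriers MCT1, MCT2 and MCT4 move lactate or pyruvate together with a proton, and they reach the cell surface in a complex with basigin (MCT1 and MCT4) or its paralog embigin (MCT2). In the testis, Sertoli cells take up glucose and release lactate, which spermatocytes and later germ cells use as fuel.

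The libraries held 12612959 to 27042274 counts, with medians of 17201853 in In/B, 15804805 in RA-sufficient PL and 26889781 in RA-deficient PL. Preleptotene and leptotene marker genes (11, among them Sycp1, Meioc and Prdm9) summed to 825 to 1695 CPM (counts per library size, scaled by TMM over all 9 libraries) in In/B, 3421 to 4403 in RA-sufficient PL and 4192 to 4952 in RA-deficient PL. Not every gene of this list followed the sum. Rec8 went the other way on average (means of 70.7, 35.8 and 24.9 CPM in In/B, RA-sufficient PL and RA-deficient PL), with overlapping libraries. Meioc had means of 457, 491 and 779 CPM in the same order. Stra8, which is on the spermatogonial list below as well, was at 126 and 121 CPM in RA-sufficient replicates 2 and 3, within the 54.4 to 165 of In/B. Some libraries stood apart. Markers of differentiating spermatogonia (8 genes) summed to 3501 and 3618 CPM in RA-deficient replicates 1 and 2, near the 3807 to 5404 of In/B, but to 1402 in replicate 3, near the 931 to 1252 of RA-sufficient PL. In RA-deficient replicates 1 and 2 the largest part of these sums was Uchl1, whose promoter drives EGFP, at 1728 and 1885 CPM. The list did not move as a whole. Ccnd2 was highest in RA-sufficient PL (49.8 to 79.3 CPM, against 16.5 to 23.3 in In/B). Dmrtb1 was at 93.5 and 81.8 CPM in RA-deficient replicates 1 and 2, below the 281 to 366 of In/B. Sohlh2, at 203 and 195 CPM there, was above the 79.4 to 79.5 of In/B. Within this list Dmrt1 was at 460 and 485 CPM in RA-deficient replicates 1 and 2, below the 534 to 711 of In/B. The spermatogonial receptor gene Kit stood at 561 and 521 CPM in these replicates 1 and 2, above the 327 to 404 of In/B, and at 20.3 CPM in replicate 3, where RA-sufficient PL had 20.2 to 41.0. Summed pachytene markers (7 genes, Ldhc among them) were 129 and 125 CPM in RA-deficient replicates 1 and 2 but 389 in replicate 3, and 1203 CPM in RA-sufficient replicate 1 against 528 and 462 in replicates 2 and 3. Mybl1 alone gave 124 and 117 CPM of the sums in RA-deficient replicates 1 and 2. Unlike the sum, Mybl1 was higher in RA-deficient replicate 3 (226 CPM) than in RA-sufficient PL (166 to 194), where it was lowest in replicate 1. Piwil1 in RA-sufficient replicate 3 (36.9 CPM) was below In/B replicates 2 and 3 (45.9 and 43.6) and RA-deficient replicate 3 (40.1). Aurkc in RA-sufficient replicate 3 (2.34 CPM) was below RA-deficient replicate 3 (3.45). Sertoli markers (11 of 12 listed genes in the table) summed to 3145 to 4118 CPM in RA-sufficient PL, 325 to 566 in RA-deficient PL and 77.4 to 381 in In/B, although all libraries came from an EGFP sort. The Sertoli gene Fshr had no count in RA-deficient replicates 1 and 2, and all other Sertoli markers in the table were detected in every library. Peritubular and stromal markers (6 genes) did not move as a list. Their sum was 883 to 1213 CPM in RA-sufficient PL against 132 to 158 in RA-deficient PL and 96.1 to 143 in In/B, but nearly all of it in RA-sufficient PL was Sparc (838 to 1169 CPM), whereas Col1a1 was lower there (5.96 to 14.7 CPM) than in RA-deficient PL (56.7 to 68.5) and In/B (48.2 to 70.8). The haemoglobin genes Hbb-b1 and Hba-a1 were at 0 in all 9 libraries.

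Slc16a7, which encodes MCT2, a high-affinity carrier for lactate and pyruvate uptake, gave the largest differences among the 7 genes (mm9 chr10:124663520-124766019, minus strand). It stood at 0.168, 0.605 and 0.735 CPM in In/B replicates 1 to 3 (3, 16 and 13 counts). In RA-sufficient PL it stood at 14.9, 8.55 and 5.65 CPM (202, 141 and 128 counts). In RA-deficient PL it stood at 0.920, 0.634 and 1.09 CPM (23, 16 and 25 counts). Every RA-sufficient library was thus above every library of both other groups, which overlapped each other. Slc16a7 was 19.6-fold higher in RA-sufficient PL than in In/B (log2 fold change 4.29 ± 0.58 (SE), n = 3 each, edgeR's quasi-likelihood test, Benjamini-Hochberg adjusted p = 2.71e-04 over all genes tested). It was 11.1-fold lower in RA-deficient than in RA-sufficient PL (log2 fold change -3.47 ± 0.55, adjusted p = 0.00597). RA-deficient PL and In/B did not differ beyond the spread of their libraries (0.97 ± 0.94, adjusted p = 0.470). Leaving out any library kept the first 2 calls, at 3.84 to 4.60 and -3.77 to -2.98 over all alternatives, and without RA-sufficient replicate 1 and RA-deficient replicate 3 together the second was -3.16. In bulk libraries like these, fewer cells of a type and less RNA per cell cannot be told apart. The summed Sertoli markers were also above both other groups in all 3 RA-sufficient libraries, as were summed pachytene markers, and their part in the Slc16a7 result was not tested.

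**Figure D1:**
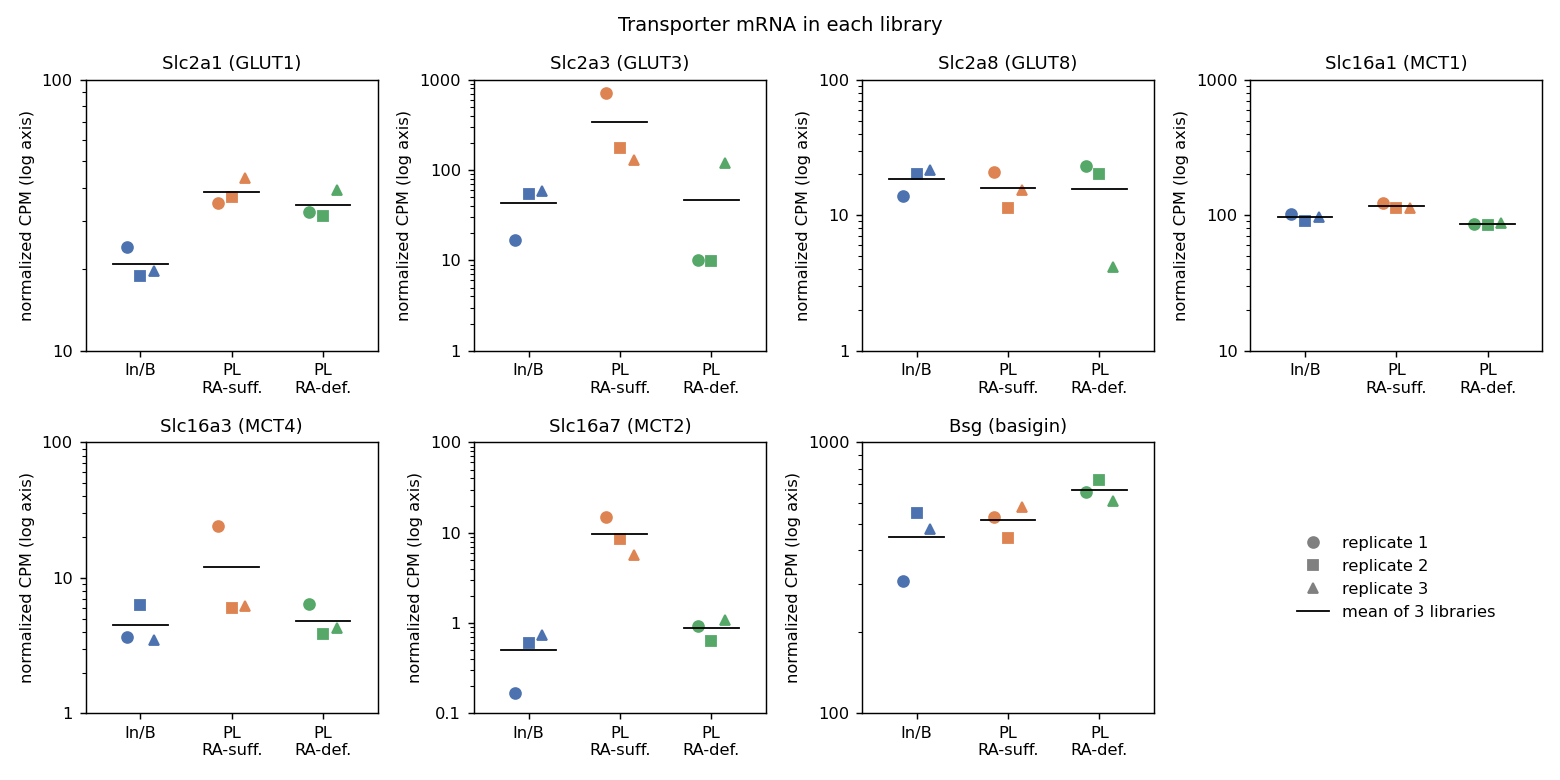
Normalized CPM (log axis) of each of the 7 genes in the 9 libraries, 1 panel per gene; points are libraries, their shape gives the replicate number and the black line is the mean of 3 libraries. Slc16a7 lies at 5.65 to 14.9 CPM in RA-sufficient PL and at or below 1.09 CPM in the other groups, while Slc2a3 spans 9.91 to 119 CPM within RA-deficient PL.

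Emb encodes embigin, the partner of MCT2 and a paralog of basigin (mm9 chr13:118009432-118062905, plus strand). Its levels were 14.5, 13.2 and 12.4 CPM in In/B, 130, 82.4 and 77.8 CPM in RA-sufficient PL, and 10.8, 5.15 and 9.01 CPM in RA-deficient PL. The RA-sufficient libraries again stood clear of both other groups, and the RA-deficient libraries were all below In/B. Emb rose 7.50-fold from In/B to RA-sufficient PL (log2 fold change 2.91 ± 0.23, adjusted p = 2.24e-05) and was 11.7-fold lower in RA-deficient than in RA-sufficient PL (-3.55 ± 0.36, adjusted p = 0.00143). Against In/B, RA-deficient PL gave -0.52 ± 0.34 (adjusted p = 0.279). Both calls held without each library in turn. The Sertoli and pachytene sums given for Slc16a7 moved with Emb in the same way, and their part was not tested. Emb exons overlap those of Gm17509 on the other strand. A stranded kit was used, but the strand setting of the counting is not given in the sources used here, so reads of such partners may be mixed.

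**Figure D2:**
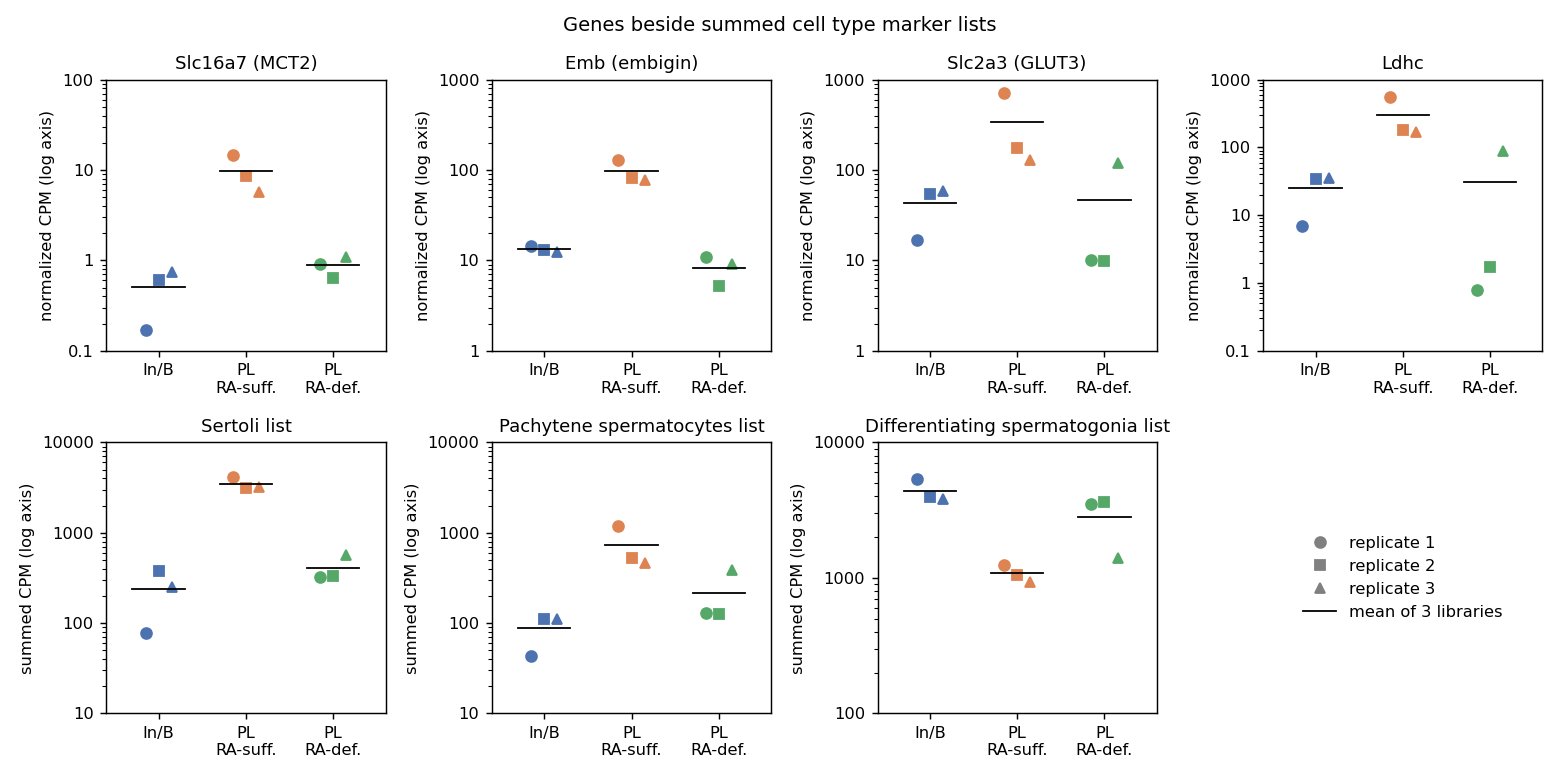
Normalized CPM of 4 genes and summed CPM of 3 marker lists in the 9 libraries (log axes; shapes give the replicate number, black lines the mean of 3 libraries). Slc16a7, Emb, Slc2a3, Ldhc and the Sertoli list were highest in the 3 RA-sufficient libraries. Within RA-deficient PL, Slc2a3 and Ldhc in replicate 3, at 119 and 89.8 CPM, stood far above replicates 1 and 2.

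Slc16a1 encodes MCT1, a widely expressed carrier that moves lactate in either direction (mm9 chr3:104442591-104462385, plus strand). It was the steadiest of the transporters, at 103, 90.3 and 97.8 CPM in In/B, 124, 113 and 113 CPM in RA-sufficient PL, and 86.4, 84.2 and 87.2 CPM in RA-deficient PL. The 3 groups did not overlap, with RA-sufficient PL highest and RA-deficient PL lowest. The differences were small, 0.32 ± 0.12 from In/B to RA-sufficient PL (adjusted p = 0.0401) and -0.45 ± 0.12 between the PL groups (adjusted p = 0.0374), and neither reached the log2 fold change of 1 that a call required. Over the alternatives these adjusted p-values ran from 0.0220 to 0.199 and from 0.00991 to 0.111. Like Slc16a1, the Sertoli and pachytene sums were highest in RA-sufficient PL, and their part in both differences was not tested. RA-deficient PL against In/B gave -0.01 ± 0.13 (adjusted p = 0.964). That fit scaled the 6 libraries of its own groups, whereas CPM were scaled over all 9, and in a single fit of all 9 the difference was -0.14 (adjusted p = 0.378).

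RefSeq promoter sequences (GRCm38.p6, 250 bases before to 50 after the start) were at hand for 4 of the 7 genes, Slc2a1, Slc2a8, Slc16a1 and Slc16a3, and for Emb. Shown are those of Emb, which was high in RA-sufficient PL only, of Slc16a1, which varied least, and of Slc2a1, described further on, which stood above In/B in PL cells with and without RA. Capitals mark GC boxes (GGGCGG on either strand), a motif that 35.7% of 32851 mouse promoters of this length hold. Slc2a1 had 2 GC boxes at chr4:119108495-119108794 (plus strand), Slc16a1 had 1 at chr3:104638414-104638713 (plus strand) and Emb had 1 at chr13:117220323-117220622 (plus strand).
Slc2a1: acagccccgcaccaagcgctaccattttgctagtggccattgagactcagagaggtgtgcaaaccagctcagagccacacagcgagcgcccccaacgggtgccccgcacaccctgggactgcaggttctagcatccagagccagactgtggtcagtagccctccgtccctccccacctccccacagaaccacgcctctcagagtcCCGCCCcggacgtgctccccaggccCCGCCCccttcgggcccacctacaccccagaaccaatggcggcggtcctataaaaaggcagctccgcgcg
Slc16a1: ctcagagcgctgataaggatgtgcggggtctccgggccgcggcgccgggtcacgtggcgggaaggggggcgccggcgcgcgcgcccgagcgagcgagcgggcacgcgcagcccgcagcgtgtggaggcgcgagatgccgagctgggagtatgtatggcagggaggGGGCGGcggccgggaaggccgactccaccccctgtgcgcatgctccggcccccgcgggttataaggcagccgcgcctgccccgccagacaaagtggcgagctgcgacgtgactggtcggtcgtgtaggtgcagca
Emb: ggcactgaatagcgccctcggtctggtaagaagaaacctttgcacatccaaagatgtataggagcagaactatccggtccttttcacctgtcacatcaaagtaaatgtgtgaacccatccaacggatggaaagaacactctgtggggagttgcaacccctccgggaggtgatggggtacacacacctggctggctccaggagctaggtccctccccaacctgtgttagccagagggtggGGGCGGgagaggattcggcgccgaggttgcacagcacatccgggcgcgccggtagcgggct
The hexamer AGGTCA read by RA receptors was found on neither strand of the 5 windows, and 16.3% of all promoters hold it. Its direct repeats with 5 or 2 bases between, each of which contains the hexamer, were absent too and occur in 0.00913% of promoters each. Only these exact letters were sought, and variants of the hexamer within the windows were not counted. These letters being absent here says nothing of such variants, or of RA receptors elsewhere in these genes. An E-box (CACGTG, in 7.15% of promoters) was present once, in Slc16a1.

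Slc16a3 encodes MCT4, a carrier typical of cells that export lactate (mm9 chr11:120809794-120822182, plus strand). Its levels were low, at 3.69, 6.28 and 3.50 CPM in In/B, 24.1, 6.00 and 6.18 CPM in RA-sufficient PL, and 6.44, 3.84 and 4.24 CPM in RA-deficient PL. Only RA-sufficient replicate 1 lay above the range of the other groups. Slc16a3 passed both thresholds in RA-sufficient PL against In/B (1.47 ± 0.57, adjusted p = 0.0465), but this rested on that library, since without it the log2 fold change was 0.49 (adjusted p = 0.236). The call was also lost without In/B replicate 1 (adjusted p = 0.117) or In/B replicate 3 (adjusted p = 0.123), and in a single fit of all 9 libraries (adjusted p = 0.0591). RA-deficient PL gave 0.28 ± 0.45 against In/B (adjusted p = 0.672) and -1.35 ± 0.63 against RA-sufficient PL (adjusted p = 0.166), the latter -0.31 without RA-sufficient replicate 1. RA-sufficient replicate 1 also had the highest Sertoli and pachytene sums (4118 and 1203 CPM), and their part in the Slc16a3 result was not tested. Slc16a3 exons overlap those of Csnk1d on the other strand.

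Slc2a3 encodes GLUT3, a high-affinity glucose transporter best known from neurons (mm9 chr6:122677827-122751658, minus strand). It varied most among the 7 genes between libraries of the same group. Its levels were 16.7, 54.3 and 59.0 CPM in In/B, 707, 175 and 128 CPM in RA-sufficient PL, and 10.1, 9.91 and 119 CPM in RA-deficient PL. All RA-sufficient libraries were above all others, yet RA-deficient replicate 3 came close to the lowest of them. Slc2a3 was 8.11-fold higher in RA-sufficient PL than in In/B (log2 fold change 3.02 ± 0.70, adjusted p = 0.00498), and 1.86 without RA-sufficient replicate 1 (adjusted p = 0.00759). For RA-deficient against RA-sufficient PL the difference of -2.90 ± 1.15 missed the threshold (adjusted p = 0.110). Without RA-deficient replicate 3 it was -5.06 (adjusted p = 0.00295), and without that library and RA-sufficient replicate 1 together it was -3.90 (adjusted p = 7.42e-05). Against In/B, RA-deficient PL gave 0.27 ± 0.95 (adjusted p = 0.858) with all libraries and -1.94 (adjusted p = 0.0135) without replicate 3. Leaving out In/B replicate 1 turned it to -0.12 as well, so direction and call for Slc2a3 in RA-deficient PL depended on the libraries used. Summed pachytene markers were highest in RA-sufficient replicate 1 (1203 CPM) and, within RA-deficient PL, in replicate 3 (389 CPM), where Slc2a3 was highest too. Summed Sertoli markers were highest in the same libraries, at 4118 and 566 CPM. The Sertoli gene Gata4 did not follow, at 7.87 CPM in RA-deficient replicate 3 against 9.24 and 8.84 in replicates 1 and 2. What part either sum had in the result was not tested. Among the pachytene markers, Ccna1 had no count in RA-deficient replicates 1 and 2, Pgk2 none in RA-deficient replicate 1 and In/B replicate 1, and Aurkc none in RA-deficient replicate 2. Mybl1 did not follow the sum within RA-sufficient PL, where it was lowest in replicate 1 (166 CPM).

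Slc2a1 encodes GLUT1, the basal glucose transporter of most cells (mm9 chr4:118781316-118809935, plus strand). It stood at 24.2, 18.9 and 19.7 CPM in In/B, 35.0, 36.8 and 43.5 CPM in RA-sufficient PL, and 32.6, 31.4 and 39.0 CPM in RA-deficient PL. Every PL library, with or without RA, was above every In/B library, and the PL groups overlapped. The increase over In/B was 1.91-fold in RA-sufficient PL (log2 fold change 0.93 ± 0.18, adjusted p = 0.00217) and 1.84-fold in RA-deficient PL (0.88 ± 0.21, adjusted p = 0.0124), both just short of the fold a call required. Without In/B replicate 1 both passed it, at 1.05 and 1.00. For RA-deficient PL the adjusted p rose above 0.05 without In/B replicate 2 (0.0705) or 3 (0.0632), and scaling by library size alone gave 0.56 (adjusted p = 0.0666). RA-deficient against RA-sufficient PL gave -0.17 ± 0.18 (adjusted p = 0.551). Its exons overlap the antisense transcript Gm12868.

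Slc2a8 encodes GLUT8, a transporter of internal membranes that is abundant in testis (mm9 chr2:32828510-32837603, minus strand). Levels were 13.9, 20.1 and 21.7 CPM in In/B, 20.8, 11.3 and 15.4 CPM in RA-sufficient PL, and 22.9, 20.01 and 4.15 CPM in RA-deficient PL. All 3 groups overlapped, and the lowest value of all was that of RA-deficient replicate 3. No comparison passed the test, with log2 fold changes of -0.18 ± 0.28 (adjusted p = 0.593), -0.07 ± 0.55 (adjusted p = 0.937) and -0.02 ± 0.60 (adjusted p = 0.984) for RA-sufficient PL over In/B, RA-deficient PL over In/B and RA-deficient over RA-sufficient PL. The sign of each changed when single libraries were left out. Without RA-deficient replicate 3 the last 2 were 0.38 and 0.45.

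Bsg encodes basigin, the chaperone of MCT1 and MCT4, whose loss is known to cause male sterility in mice (mm9 chr10:79167103-79174724, plus strand). Its levels were 308, 549 and 481 CPM in In/B, 530, 445 and 579 CPM in RA-sufficient PL, and 658, 728 and 608 CPM in RA-deficient PL. The RA-deficient libraries were above all others, while In/B and RA-sufficient PL overlapped. RA-deficient PL was 1.68-fold above In/B (log2 fold change 0.75 ± 0.19, adjusted p = 0.0179), below the fold that a call required, and leaving out RA-deficient replicate 1 or 2 raised the adjusted p to 0.0540 or 0.0687. Scaling by library size alone lowered the median of all genes by 0.32 in this comparison and Bsg to 0.44 (adjusted p = 0.102). RA-sufficient PL differed from In/B by 0.28 ± 0.20 (adjusted p = 0.248), and RA-deficient from RA-sufficient PL by 0.36 ± 0.13 (adjusted p = 0.0945).

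**Figure D3:**
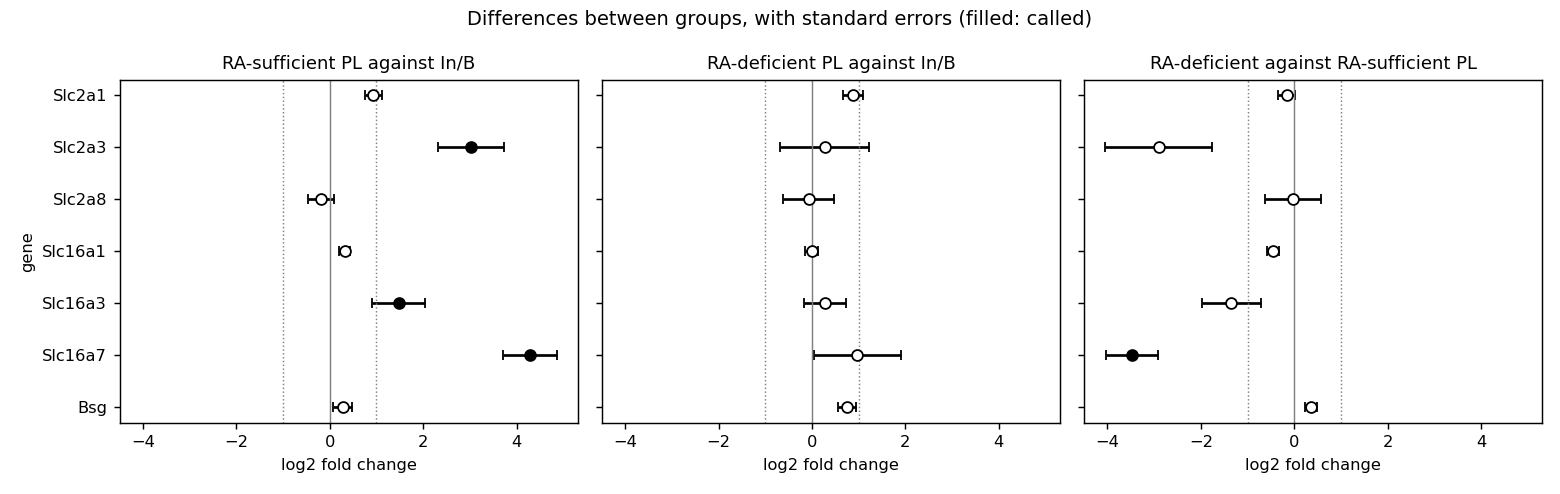
Log2 fold change of the 7 genes in the 3 comparisons (points) with standard errors (bars, n = 3 libraries per group); filled points were called and dotted lines mark a log2 fold change of 1 in either direction. Slc2a3, Slc16a3 and Slc16a7 were called in the first panel, none in the second and Slc16a7 in the third.

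Calls needed more than a log2 fold change of 1 in either direction together with an adjusted p below 0.05. Between In/B and RA-sufficient PL, 3 of the 7 genes were called, all higher, where 45.4% of 15001 genes tested were called (26.1% higher, 19.3% lower). By the adjusted p alone, 5 of 7 passed where 65% of all genes did. In RA-deficient PL against In/B, 0 of 7 were called by edgeR and 0 by DESeq2, where 23.2% of 14877 genes were (11.4% higher, 11.8% lower), and 2 passed the adjusted p alone (36.7% of all genes), as did 2 at an unadjusted p under 0.05. In RA-deficient against RA-sufficient PL, 1 of 7 was called, where 15.5% of 15352 genes were (4.47% higher, 11% lower), and 2 passed the adjusted p alone (23.6% of all genes). Leaving out RA-deficient replicate 3 added Slc2a3, called lower, in both of the last comparisons, and leaving out In/B replicate 1 added Slc2a1, called higher, against In/B. The count of all genes called between the PL groups, 2383, was 4484 without RA-deficient replicate 3 and 1190 to 1283 without any given RA-sufficient library. With 7 genes, 1 gene more or less moves such a share by more than most of these gaps from the background, so the counts say little about the group as such. The median log2 fold change of the 7 was 0.93, 0.28 and -0.45 in these comparisons, beside 0.04, 0.00 and -0.09 for all genes tested. The comparisons share libraries, so their values are not independent of each other.

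Between genes, levels were compared as CPM per kilobase of the longest coding transcript. Bsg was the most abundant in every group, at 255 ± 70.9 (SD, n = 3) in In/B, 296 ± 38.8 in RA-sufficient PL and 379 ± 34.5 in RA-deficient PL, with no overlap with the next gene. In In/B the next was Slc16a1 (21.9 ± 1.43), followed by Slc2a3 (10.9 ± 5.86), Slc2a8 (8.81 ± 1.95) and Slc2a1 (8.03 ± 1.10), which overlapped with their neighbours, and then Slc16a3 (1.04 ± 0.357) and Slc16a7 (0.133 ± 0.0784). In RA-sufficient PL Slc2a3 came before Slc16a1, at 85.1 ± 81.3 against 26.4 ± 1.43. That order held in all libraries by the longest transcript, but by the length of all exons merged the libraries of the pair overlapped. Slc2a1 (14.8 ± 1.72) and Slc2a8 (7.49 ± 2.26) followed, then Slc16a3 (2.79 ± 2.39), which overlapped with Slc2a8, and Slc16a7 (2.56 ± 1.24), which overlapped with Slc16a3. In RA-deficient PL Slc16a1 (19.4 ± 0.358) was again next to Bsg by mean, but not in every library. In replicate 3 Slc2a3 reached 30.1, above the highest Slc16a1 library (19.7). By the length of all exons merged it reached 16.5 there, below every Slc16a1 library. Slc2a1 (13.2 ± 1.58), Slc2a3 (11.7 ± 15.9) and Slc2a8 (7.44 ± 4.79) overlapped with their neighbours, and Slc16a3 (1.12 ± 0.322) and Slc16a7 (0.233 ± 0.0612) were lowest.

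Pairs of transporters were also compared within each library. The log2 ratio of Slc16a7 to Slc16a1 (both on normalized CPM with 0.5 added) was -6.65 ± 0.54 (SD, n = 3) in In/B, -3.63 ± 0.60 in RA-sufficient PL and -5.98 ± 0.22 in RA-deficient PL, and no groups overlapped. The differences of 3.02, 0.67 and -2.35 each gave p = 0.10 in an exact two-sided permutation test, the smallest p that 3 against 3 libraries allow. Because Slc16a7 is low, these sizes depend on the value added, and with 0.1 CPM in place of 0.5 they were 3.8003, 1.01 and -2.79. For Slc2a3 to Slc2a1 the log2 ratio was 0.84 ± 1.19 in In/B, 2.70 ± 1.44 in RA-sufficient PL and -0.55 ± 1.86 in RA-deficient PL. Here single libraries spanned from -1.65 to 1.60 within RA-deficient PL, and the exact permutation p was 0.20 from In/B to RA-sufficient PL, 0.40 from In/B to RA-deficient PL and 0.20 between the PL groups.

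Other genes of sugar and lactate transport and of lactate conversion were read from a list of 33, of which 32 were in the table and 26 were tested in at least 1 comparison. In RA-sufficient PL against In/B 13 of 26 tested were called (45.4% of all genes), 9 higher and 4 lower. In RA-deficient PL against In/B 3 of 25 were called (23.2% of all genes), with Mpc1 and Ldhb higher and Arrdc4 lower. In RA-deficient against RA-sufficient PL 6 of 24 were called (15.5% of all genes), with Txnip higher and Emb, Ldhb, Ldha, Slc2a12 and Slc16a4 lower. Without RA-deficient replicate 3, where calls between the PL groups rose over all genes too, the last 2 counts were 8 and 12. The second was 1 without In/B replicate 3, and the third was 3 without any given RA-sufficient library or without RA-deficient replicate 1. Called in at least 1 comparison were 15 genes, among them Slc5a1, Slc16a14, Ldhc and Slc16a4 besides those described here.

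**Figure D4:**
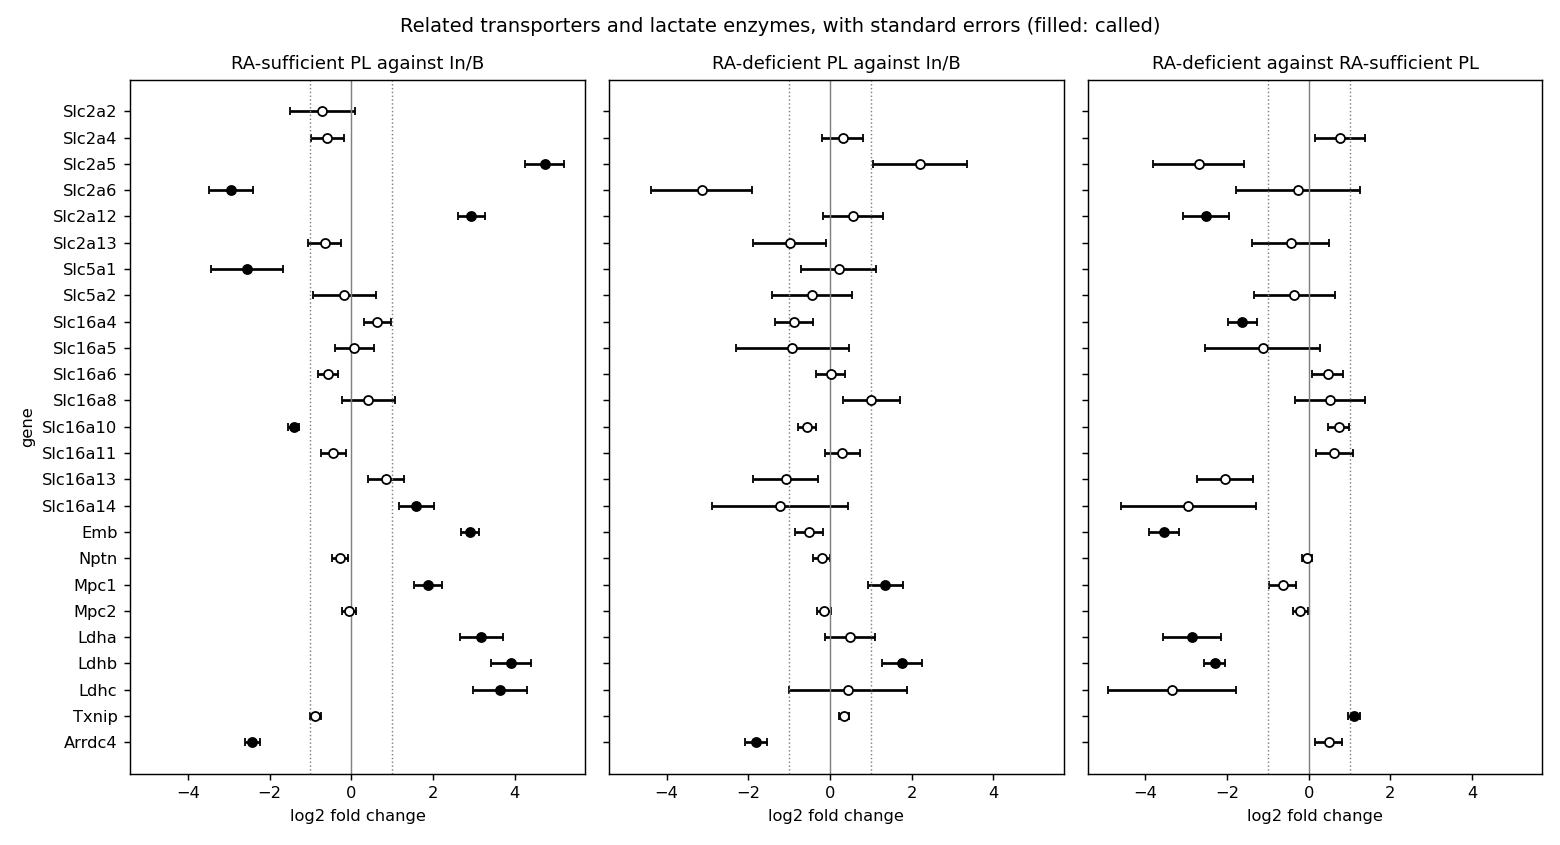
Log2 fold change (points) with standard errors (bars, n = 3 libraries per group) of 25 tested genes related to the 7, in the 3 comparisons; filled points were called, dotted lines mark a log2 fold change of 1, and a missing point was not tested. The 3 lactate dehydrogenase genes and Emb lie far to the right in RA-sufficient PL against In/B and to the left in RA-deficient against RA-sufficient PL.

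The lactate dehydrogenases, which interconvert lactate and pyruvate, were all 3 called higher in RA-sufficient PL than in In/B. Ldhb, the heart-type subunit, stood at 6.21, 30.0 and 15.4 CPM in In/B, 328, 212 and 212 CPM in RA-sufficient PL, and 54.0, 38.6 and 61.5 CPM in RA-deficient PL, so that no groups overlapped. It rose by 3.92 ± 0.49 in RA-sufficient PL (adjusted p = 1.89e-04) and by 1.76 ± 0.49 in RA-deficient PL (adjusted p = 0.0244; 0.0888 without In/B replicate 3 and 0.0639 without RA-deficient replicate 1), and it was lower in RA-deficient than in RA-sufficient PL (-2.30 ± 0.26, adjusted p = 0.00202). Ldha, the muscle-type subunit, rose by 3.19 ± 0.52 in RA-sufficient PL (adjusted p = 7.61e-04) and differed between the PL groups by -2.85 ± 0.72 (adjusted p = 0.0283). The latter call was lost without RA-sufficient replicate 1 or 2 or without RA-deficient replicate 1 or 2 (adjusted p from 0.0542 to 0.0908). Ldhc, the testis-specific subunit, rose by 3.64 ± 0.67 in RA-sufficient PL (adjusted p = 0.00144, and 0.0562 in a single fit of all libraries). It had 0.800, 1.74 and 89.8 CPM in RA-deficient PL beside 562, 183 and 171 CPM in RA-sufficient PL. Its difference of -3.35 ± 1.56 between the PL groups missed the threshold (adjusted p = 0.163), and without RA-deficient replicate 3 it was -7.89 (adjusted p = 4.35e-04). The Sertoli sums (3145 to 4118 CPM in RA-sufficient PL against 77.4 to 381 in In/B and 325 to 566 in RA-deficient PL) and the pachytene sums, which include Ldhc, were also highest in RA-sufficient PL, and their part in these differences was not tested.

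Among other sugar transporters, Slc2a5 (GLUT5, a fructose transporter) rose by 4.74 ± 0.48 in RA-sufficient PL (adjusted p = 6.56e-05), from 1.51, 6.01 and 3.90 CPM to 144, 83.4 and 70.5 CPM. In RA-deficient PL it stood at 2.80, 1.902 and 42.1 CPM, again with replicate 3 apart. The difference between the PL groups was -2.69 ± 1.12 (adjusted p = 0.123), and -5.39 (adjusted p = 2.01e-04) without that library. Slc2a12 (GLUT12) rose by 2.94 ± 0.34 in RA-sufficient PL (adjusted p = 1.24e-04) and was lower in RA-deficient than in RA-sufficient PL (-2.52 ± 0.55, adjusted p = 0.0185), a call lost when any RA-sufficient library or RA-deficient replicate 1 was left out (adjusted p from 0.0523 to 0.0744). Slc2a6 (GLUT6) fell from 4.75, 5.41 and 6.16 CPM in In/B to 0.515, 0.243 and 1.19 CPM in RA-sufficient PL (-2.95 ± 0.54, adjusted p = 0.00137, and 0.0551 in a single fit of all libraries). In RA-deficient PL it had 0.1999, 0 and 1.44 CPM (-3.15 ± 1.25, adjusted p = 0.0846). DESeq2 called this difference (adjusted p = 0.0171), as did edgeR without replicate 3, at -5.53 (adjusted p = 0.00268). Like Slc2a5 and Slc2a12, the Sertoli and pachytene sums were highest in RA-sufficient PL. Within RA-deficient PL both sums, like Slc2a5, were highest in replicate 3. The part of these sums in the differences was not tested. Slc2a12 exons overlap those of Tbpl1 on the other strand.

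Arrdc4 and Txnip encode arrestin-domain proteins that reduce glucose uptake by drawing GLUT1 from the cell surface. Arrdc4 fell by 2.42 ± 0.18 on the log2 scale from In/B to RA-sufficient PL (adjusted p = 1.81e-05) and by 1.81 ± 0.27 from In/B to RA-deficient PL (adjusted p = 0.00159). Its levels were 78.6, 68.7 and 72.6 CPM in In/B, 15.3, 13.2 and 11.1 CPM in RA-sufficient PL, and 25.3, 18.2 and 12.4 CPM in RA-deficient PL, so every PL library was below every In/B library. Txnip had 225, 184 and 187 CPM in In/B, 113, 109 and 89.9 CPM in RA-sufficient PL, and 243, 210 and 220 CPM in RA-deficient PL. It was higher by 1.10 ± 0.14 in RA-deficient than in RA-sufficient PL (adjusted p = 0.00308). Scaling by library size alone, which lowered the median of all genes by 0.18 here, gave 0.92, below the fold a call required, as did leaving out RA-sufficient replicate 3 (0.98). Txnip exons overlap those of Gm15441 on the other strand.

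Mpc1, a subunit of the carrier that brings pyruvate into mitochondria, rose by 1.88 ± 0.34 in RA-sufficient PL (adjusted p = 0.00133) and by 1.36 ± 0.42 in RA-deficient PL (adjusted p = 0.0368) against In/B. The second call was lost when any In/B library or RA-deficient replicate 1 or 2 was left out (adjusted p from 0.0523 to 0.107), and with scaling by library size alone (adjusted p = 0.0858). Its partner Mpc2 gave -0.06 ± 0.17 (adjusted p = 0.780) and -0.15 ± 0.18 (adjusted p = 0.578). Mpc1 exons overlap those of 4930506C21Rik on the other strand. Slc16a10 (TAT1), an aromatic amino acid carrier of the SLC16 family that does not carry lactate, fell from 55.7, 61.4 and 62.1 CPM in In/B to 21.7, 20.8 and 22.3 CPM in RA-sufficient PL (-1.41 ± 0.14, adjusted p = 6.53e-05). It stood at 48.4, 31.1 and 28.6 CPM in RA-deficient PL, between the other groups, with no call against either.

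For each member the 2 genes with the most similar course over the 9 libraries were sought among the 9692 genes whose mean reached 10 CPM, by Pearson's r of log2(CPM + 0.5). Slc16a7 was closest to Vsig1 (r = 0.993) and Gpr37 (r = 0.991). Vsig1 stood at means of 8.73, 120 and 12.5 CPM in In/B, RA-sufficient PL and RA-deficient PL. Like Slc16a7 it was highest in RA-sufficient PL, which follows from its being picked by correlation. Slc2a3 was closest to 1700074P13Rik (r = 0.989) and Tsnaxip1 (r = 0.988), and Slc2a1 to Myh14 (r = 0.982) and Map2k3 (r = 0.979). For Slc16a1 they were Fam214a (r = 0.977) and Slc41a2 (r = 0.972), for Slc16a3 Pard6g (r = 0.940) and Gkap1 (r = 0.917), for Slc2a8 Zfp28 (r = 0.987) and Rufy3 (r = 0.966), and for Bsg Cst3 (r = 0.989) and Pura (r = 0.981). All points of a correlation share the same libraries and their differences in cell composition, and each pair is the best of the 9692 searched.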

How the data were processed

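RNA of FACS-isolated germ cells was sequenced (9 libraries, 3 groups of 3). Per the labels and the study's methods, the authors trimmed reads with cutadapt 1.9, mapped them to mm9 with STAR 2.5.2b and counted them per gene with featureCounts. The deposited values are raw counts (24505 rows, 24503 names, 26 of them turned into dates), with 12612959 to 27042274 counts per library. Every comparison used its 6 libraries in edgeR 4.0.16 (R 4.3.3): filterByExpr, TMM and the quasi-likelihood test, with Benjamini-Hochberg adjustment over all genes tested. A call required an absolute log2 fold change over 1 at an adjusted p under 0.05. CPM were scaled by TMM over all 9 libraries. SE is the log2 fold change divided by the square root of F. The fits were tested on simulated data. DESeq2 1.42.0, other scalings and filters, a single fit, a replicate block and leaving out libraries were alternatives. Leaving out RA-sufficient replicate 1 and RA-deficient replicate 3 together was added after seeing the data.

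Positions and lengths came from the GENCODE annotation of mm9 and promoters from RefSeq (GRCm38.p6), which were not mixed. The members and lists were chosen with earlier results of these data known. All 7 members are named, and of the related list the 10 called genes of smallest p with values, beside Ldhc, Mpc2, Kit and single marker genes, which were named after their values were seen. For each member the 2 genes of highest correlation are named. A called gene of the related list is not reported here.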

Additional observations from a re-analysis of the deposited data

Results flagged for a closer look

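The change of Slc16a7 from In/B spermatogonia to PL spermatocytes differed between the RA regimens. Both PL groups were set against the same In/B libraries, so the difference between the changes is that between the PL groups themselves, -3.47 on the log2 scale (RA-deficient minus RA-sufficient, edgeR's quasi-likelihood test, adjusted p = 0.00597), with all 3 RA-sufficient libraries above all 3 RA-deficient libraries.

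The change of Slc16a1 differed in the same direction by -0.45 (adjusted p = 0.0374, and 0.00991 to 0.111 over the alternatives), again with no overlap between the PL groups. This is a 1.37-fold difference. Summed Sertoli and pachytene markers were also highest in RA-sufficient PL, and their part in the Slc16a7 and Slc16a1 differences was not tested.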

How the results depend on the processing

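Of the 7 genes, Slc16a7 kept its direction and both its calls, higher in RA-sufficient PL than in In/B and lower in RA-deficient than in RA-sufficient PL, under every alternative run. With the replicate number as a block, 1 of 7 genes instead of 3 was called between In/B and RA-sufficient PL (Slc2a3 at 2.61, adjusted p = 0.0504). Over all 15001 genes tested, 6373 were called with the block and 6803 without it. The sources used here do not say whether a number marks a shared animal or day. Deviations from the group means correlated at -0.26 to -0.18 for same-numbered libraries in that comparison, and at -0.12 to 0.21 for others. In RA-deficient PL against In/B these ranges were -0.0883 to 0.126 and -0.16 to 0.12. With 3 libraries the deviations within a group cancel out, so these values cannot decide whether the numbers mark pairs. With the adjusted p alone, 5, 2 and 2 genes passed (RA-sufficient PL over In/B, RA-deficient PL over In/B, and between the PL groups), and over all genes 5459 and 3629 passed in the last 2 of these comparisons. Leaving out single libraries gave 0 to 1 of 7 genes called in RA-deficient PL against In/B and 1 to 2 in RA-deficient against RA-sufficient PL, 1190 to 4484 genes over all in the latter, and 1 to 8 and 3 to 12 of the related list in these comparisons. For RA-deficient against RA-sufficient PL, leaving out RA-sufficient replicate 1 and RA-deficient replicate 3 together gave 4232 genes, 2 of 7 and 11 of the related list, and an adjusted p of at most 0.01 gave 973 genes and 3 of the related list. In RA-deficient PL against In/B that threshold left 1 of the related list, and a single fit of all libraries gave 5.

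Signs turned as follows, and none of the genes concerned was called in the comparison named when all libraries were used. From In/B to RA-deficient PL, Slc2a3 was -0.0527 by library size alone and -0.54 with the block, and ran from -1.94 (without RA-deficient replicate 3) to 0.70 when single libraries were left out. Slc2a8 ran from -0.45 to 0.38. Slc16a1 was 0.0148 with a mean of at least 50 counts and ran from -0.0902 to 0.03998. Slc16a3 was -0.0328 by library size alone and ran from -0.0046 to 0.56. From In/B to RA-sufficient PL, Slc2a8 ran from -0.43 to 0.0113. Between the PL groups Slc2a8 was 0.0180 in the single fit and 0.71 without RA-sufficient replicate 1 and RA-deficient replicate 3 together, and ran from -0.37 to 0.45. The cause was not tested. Slc16a7 in In/B rests on 3 to 16 counts per library, which limits how precisely its fold change is known.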
